A study of Mus musculus with 2 samples.

Results

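The clustered replication histone genes encode the core histones H2A, H2B, H3 and H4 and the linker histone H1. They were taken as every feature whose symbol begins with Hist1h or Hist2h, which gave 66 of the 27998 genes in the count tables: 6 of H1, 18 of H2A, 18 of H2B, 12 of H3 and 12 of H4. Of these, 63 had at least 1 UMI (unique molecular identifier, a tag that marks a captured RNA molecule) and 3 had none. In the mm10 mouse genome (GRCm38, GENCODE M21 gene models) 53 lie on chromosome 13, 11 lie on chromosome 3 and 2, Hist1h2bm and Hist1h2bh, had no gene model. The 66 features carry 65 symbols, because Hist2h2bb names 2 of them. Hist1h2al is annotated as a processed pseudogene.

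Histone protein is needed in bulk when DNA is copied, so most of these genes are known to be transcribed in S phase and their RNA to be destroyed when replication ends. Most of their mRNAs end in a short conserved stem-loop, bound by the protein SLBP, in place of a poly(A) tail. Some members are also known to give polyadenylated RNA in cells that have left the cycle, and poly(dT)-primed 3′ libraries of the kind used here capture tailed RNA.

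The cells came from bone healing in wild-type C57BL/6 mice. Defects of 2 mm in the parietal bone of the skull were filled with a hydrogel, called CGG in one group and CGG-Cit in the other, and cells were released with collagenase 14 days later for droplet 3′ RNA sequencing (10x Chromium). The series asked which cell populations were there and whether they bore on the recruitment of progenitor cells. What CGG and CGG-Cit stand for, the number and age of the mice and which kit version made which library are not given in the sources used here. There was 1 library per hydrogel, so no difference has a replicate check and no p-value is given. Intervals are 95% exact intervals and cover counting error only.

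The CGG library held 12527 barcodes and 92517884 UMIs, and the CGG-Cit library 10806 barcodes and 106173570 UMIs. After filters on detected genes, mitochondrial share and predicted doublets, 11048 and 9994 cells remained, with medians of 3969 and 5913.5 UMIs. Predicted doublets were 10% of barcodes in CGG and 5.1% in CGG-Cit, by different thresholds. The libraries shared 26 barcodes. Cells were gated by marker panels into 15 classes, which left 4376 of the 11048 CGG cells (39.6%) and 1001 of the 9994 CGG-Cit cells (10%) ungated. Each cell was called non-cycling with no UMI of Mki67 or Top2a, genes of dividing cells, and cycling with 2 or more UMIs of the pair. Below, at rest and resting mean only this non-cycling call. A cell of low depth can be in cycle and still show no UMI of the pair. Levels are CPM, UMIs of a gene per 1000000 UMIs of the same cells. A UMI stands for a molecule, so levels were not divided by gene length. Within the B lineage gate the panel (Cd79a, Ebf1, Pax5 and others) summed to 10654 and 10833 CPM, against at most 1232 and 395 CPM in any other class.

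The stem-loop is shown for 6 members, because how far an annotated transcript runs past it differs among genes whose levels differed below. GENCODE M21 transcripts of 41 members held one, in 8 distinct forms, and 22 of these had the form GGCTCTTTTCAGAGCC. Each line gives mm10 coordinates and the DNA of the gene's sense strand, 5′ to 3′, with the 16-base stem-loop in capitals.
Hist1h2ap (chr13:21833026-21833049, minus strand): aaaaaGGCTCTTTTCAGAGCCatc
Hist1h2ab (chr13:23751567-23751592, plus strand): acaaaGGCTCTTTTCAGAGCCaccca
Hist1h3c (chr13:23745042-23745067, minus strand): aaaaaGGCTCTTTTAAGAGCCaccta
Hist1h4i (chr13:22040961-22040986, minus strand): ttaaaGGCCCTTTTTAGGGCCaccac
Hist1h1c (chr13:23739507-23739532, plus strand): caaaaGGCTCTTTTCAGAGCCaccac
Hist1h1e (chr13:23621777-23621802, minus strand): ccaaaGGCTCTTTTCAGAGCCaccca
The Hist1h2ap transcript ended 3 bases after its stem-loop, that of Hist1h2ab 11 bases after and that of Hist1h3c 74 bases after. Annotated transcripts of Hist1h4i, Hist1h1c and Hist1h1e ran on for 330, 840 and 1153 bases. Those of Hist1h2ae and Hist1h4d, not shown, ran on for 151 and 770 bases. These 2 genes still had high cycling to non-cycling ratios in the B lineage, 45.7 and 26.5 for Hist1h2ae and 24.3 and 21.4 for Hist1h4d. The 6 shown therefore do not stand for all members in how length and level go together. In all, 19 members had a transcript running at least 100 bases past the stem-loop, and 12 of the 19 held AATAAA or ATTAAA, the hexamers of polyadenylation, after it. The models of 23 members held no stem-loop, among them Hist1h2bc, Hist2h2be, Hist1h1a and Hist1h1b. Several of these models are short, at 393 bases for Hist1h2ai and 312 for Hist1h4k against 1156 for Hist1h2bc. A short model may stop before a stem-loop, so its absence there can lie in the annotation. Copies could not always be told apart by a 3′ read. In 43 members at least 1 100-base word of the last 300 transcript bases was also in a transcript of another member. In 8 every such word was, namely Hist1h1e, Hist1h2ap, Hist1h3e, Hist1h3f, Hist1h4m, Hist1h2bq, Hist2h2aa1 and Hist2h2aa2. The 3′ end of Hist1h1e overlaps Hist1h2be on the same strand, by 496 of its 1930 bases. The levels of such genes, and the split between them, are uncertain.

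Promoters of 57 members were found in RefSeq (GRCm38.p6), as 250 bases before and 50 after the start. CCAAT, on either strand, was present in 49 of 57 (86%), against 37.9% of 27025 promoters of the same length. It was in every promoter of H1, H2A, H2B and H3 found and in 3 of 11 of H4. ATTTGCAT, the octamer, was in 6 of 17 H2A and 5 of 13 H2B promoters and in none of H1, H3 or H4, which made 19.3% of members against 1.75% of all promoters. TATAAA was in 34 of 57 (59.6%), against 14.2% of all. The 3 below show a promoter with all 3 motifs, a promoter with CCAAT and TATAAA, and a promoter with TATAAA alone. Capitals mark CCAAT, ATTTGCAT and TATAAA on either strand, and a match is a description of the letters. In Hist1h2ae, TATAAA and ATTTGCAT matched only on the opposite strand, as TTTATA and ATGCAAAT. Its window overlaps that of Hist1h2bg, an H2B gene on the other strand. Windows of some other neighbouring H2A and H2B genes overlap too, so a match can be counted for both genes.
Hist1h2ae (RefSeq H2ac8, chr13:23571171-23571470, minus strand): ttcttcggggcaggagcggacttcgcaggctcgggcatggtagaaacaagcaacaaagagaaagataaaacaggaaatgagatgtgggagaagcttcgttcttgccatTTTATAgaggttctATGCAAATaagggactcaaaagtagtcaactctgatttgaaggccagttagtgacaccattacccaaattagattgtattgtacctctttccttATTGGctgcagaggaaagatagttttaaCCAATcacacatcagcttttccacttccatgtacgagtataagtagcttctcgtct
Hist1h1b (RefSeq H1f5, chr13:21780576-21780875, minus strand): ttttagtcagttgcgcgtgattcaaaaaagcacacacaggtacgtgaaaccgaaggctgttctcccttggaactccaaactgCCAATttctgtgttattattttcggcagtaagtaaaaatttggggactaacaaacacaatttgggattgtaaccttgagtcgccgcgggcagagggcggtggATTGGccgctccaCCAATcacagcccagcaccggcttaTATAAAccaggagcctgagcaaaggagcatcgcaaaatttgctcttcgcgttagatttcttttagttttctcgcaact
Hist1h4i (RefSeq H4c9, chr13:22041313-22041612, minus strand): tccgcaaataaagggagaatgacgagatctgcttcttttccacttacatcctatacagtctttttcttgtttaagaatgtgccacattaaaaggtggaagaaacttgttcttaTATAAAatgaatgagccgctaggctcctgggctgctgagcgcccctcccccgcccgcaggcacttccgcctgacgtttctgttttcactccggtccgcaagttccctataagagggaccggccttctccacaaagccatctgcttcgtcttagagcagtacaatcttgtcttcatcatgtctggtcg

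B lineage cells held the largest share of histone RNA in the CGG-Cit library. In cycling B lineage cells, histone RNA made up 7794 CPM in CGG (7672 to 7919, 155 cells) and 7690 CPM in CGG-Cit (7644 to 7736, 1220 cells). In non-cycling cells of the gate it was 741 CPM (704 to 779, 709 cells) and 868 CPM (846 to 890, 2381 cells). Cycling cells were therefore 10.5 times higher in CGG (9.98 to 11.1) and 8.86 times higher in CGG-Cit (8.63 to 9.1). The median cycling cell held 75 and 78 histone UMIs, and the median non-cycling cell 1 and 2. Depth moved with the split, since median UMIs per cell were 8854 against 2543 in CGG and 8407 against 2718 in CGG-Cit. With each cell thinned to 2000 UMIs the levels were 8530 against 740 CPM and 8933 against 902 CPM, leaving out 3 cycling and 169 non-cycling cells of CGG and 17 and 445 of CGG-Cit. Cells with exactly 1 UMI of the pair, 70 and 292 in number, lay at 669 and 1020 CPM, nearer to the non-cycling than to the cycling cells.

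**Figure D1:**
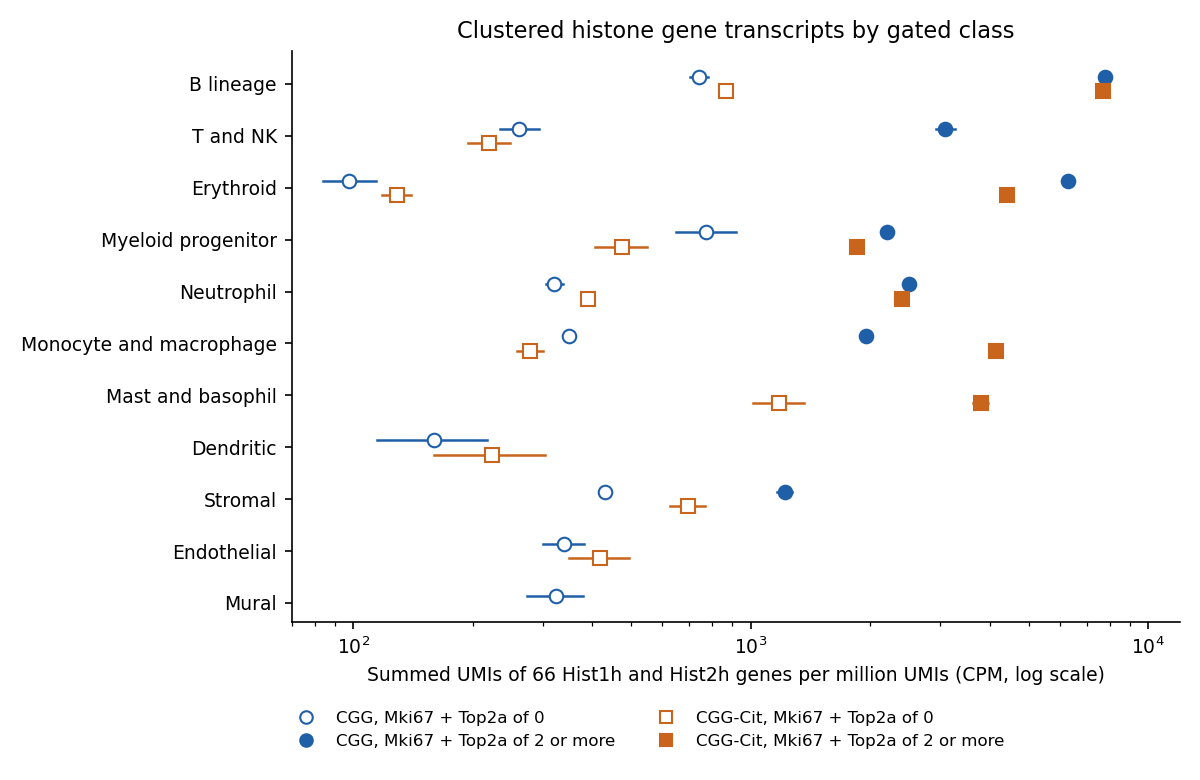
Summed CPM of the 66 clustered histone genes (log axis) in gated classes, for cycling and non-cycling cells of each library where a state had at least 20 cells, with exact 95% counting intervals. In the B lineage cycling cells stood at 7794 and 7690 CPM and non-cycling cells at 741 and 868 CPM.

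Most members that could be compared shared this difference. With a minimum of 30 UMIs over both sides, 37 of 39 members in CGG and 50 of 55 in CGG-Cit were at least 2-fold higher in cycling B lineage cells, where 12.3% and 11.9% of all genes were. The median member ratio was 19.5 in CGG and 10.4 in CGG-Cit, against 0.898 and 0.874 over all genes. A member with few non-cycling UMIs can reach that minimum through its cycling side alone. Among genes with at least 10 non-cycling UMIs, a limit added after the values were seen, 21 of 23 and 33 of 38 members were at least 2-fold higher, against 9.81% and 9.98% of genes, with median member ratios of 7.88 and 7.6. The other members of the 66 did not reach the minimum and are not counted.

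Of the linker histones, Hist1h1b (H1.5) stood at 28.8 CPM in non-cycling and 1202 CPM in cycling cells of CGG, a ratio of 41.8 (32.2 to 55.2). In CGG-Cit the levels were 41.7 and 1522 CPM, a ratio of 36.5 (32.4 to 41.1). It had the most UMIs of all members, 15.3% of the total. Hist1h1a (H1.1) was 31.9 and 14.5 times higher in cycling cells, and Hist1h1d (H1.3) 8.65 and 6.36 times. Hist1h1e (H1.4), whose 3′ end is shared with Hist1h2be, had a high resting level, 170 CPM in CGG and 236 CPM in CGG-Cit, and reached 679 and 774 CPM in cycling cells, ratios of 3.99 and 3.28. Hist1h1c (H1.2) barely differed between the 2 states. Its levels were 145 and 164 CPM in CGG (ratio 1.13, 0.965 to 1.33) and 159 and 194 CPM in CGG-Cit (1.22, 1.14 to 1.31).

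Among the H2A genes, Hist1h2ae was the highest member in cycling B lineage cells of CGG, at 1564 CPM against 34.2 CPM (ratio 45.7, 36 to 58.9, and 73.5 after thinning). In CGG-Cit it was 1355 against 51.2 CPM (26.5, 23.8 to 29.5). Hist1h2ap stood at 907 against 21.3 CPM and at 776 against 24.2 CPM, ratios of 42.6 and 32. Hist1h2ab, with 5.45 and 4.82 CPM at rest, was 56.1 and 60.4 times higher in cycling cells, and 103 times in CGG after thinning. Hist2h2ac, on chromosome 3, was 19.5 and 10.9 times higher.

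The H2B genes divided. Hist1h2bc, the H2B member with the most UMIs, was at 101 CPM in non-cycling and 135 CPM in cycling cells of CGG (ratio 1.33, 1.11 to 1.61) and at 87.4 and 123 CPM in CGG-Cit (1.41, 1.29 to 1.55). Thinned to equal depth, where each cell has equal weight, its ratios were 2.25 and 2.13. Hist1h2be was 3.5 and 2.54 times higher in cycling cells, and it overlaps the 3′ end of Hist1h1e.

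Of the H3 genes, Hist1h3c was nearly absent at rest, with 3 UMIs in non-cycling CGG cells (1.49 CPM), against 313 CPM in cycling cells, a ratio of 210 with an interval of 71.6 to 1020 that became 98 (47.3 to 245) when a cell was gated by its leading panel alone. In CGG-Cit it was 2.19 against 281 CPM, a ratio of 128 (77.7 to 230). Hist1h3e was 6.24 and 8.44 times higher, and it shares its 3′ end with Hist1h3f. Hist2h3c2, an H3 gene on chromosome 3, was low in every state. Its levels in CGG-Cit were 2.48 and 4.09 CPM, a ratio of 1.65 (0.947 to 3.02).

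For H4, Hist1h4d was at 13.4 CPM at rest in both libraries and at 325 and 287 CPM in cycling cells, ratios of 24.3 and 21.4. Hist1h4i had a higher resting level, 29.7 and 30.1 CPM, and lower ratios, 4.38 (6.63 after thinning) and 4.86. The H4 genes are known to encode the same protein.

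**Figure D2:**
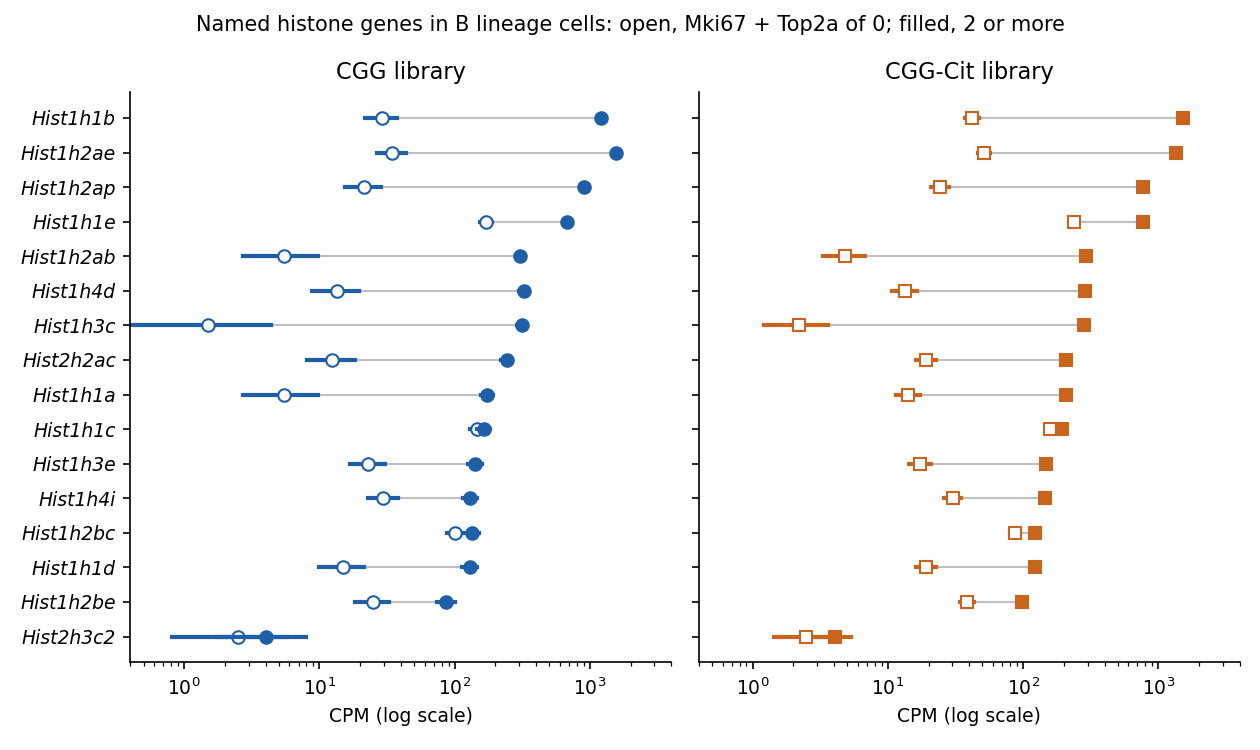
CPM of the 16 named members in non-cycling and cycling B lineage cells of each library (log axis) with exact 95% counting intervals. Hist1h3c spans the widest gap, and Hist1h2bc and Hist1h1c, at ratios of 1.13 to 1.41, have the closest pairs among members above 100 CPM in cycling cells.

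By protein, H2A showed the widest gap in the B lineage, 93.7 against 3379 CPM in CGG (ratio 36.1, 31.2 to 41.9) and 120 against 2939 CPM in CGG-Cit (24.5, 22.9 to 26.3). H2A was 12.7% and 13.8% of resting histone UMIs and 43.4% and 38.2% of cycling ones. The ratios of H3 were 12.9 and 14.5 and those of H4 9.02 and 8.89. H1 was 6.45 and 6 times higher and H2B 4.48 and 4.04 times higher. Leaving out Hist1h1c raised the H1 ratios to 9.97 and 8.44, and leaving out Hist1h2bc raised those of H2B to 10.4 and 7.01. Both genes were chosen after the values were seen and had low ratios, so a rise was fixed by the choice. In non-cycling stromal cells of CGG, H2B alone was 65.2% of histone UMIs, and in non-cycling neutrophils 46% and 47.3%.

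**Figure D3:**
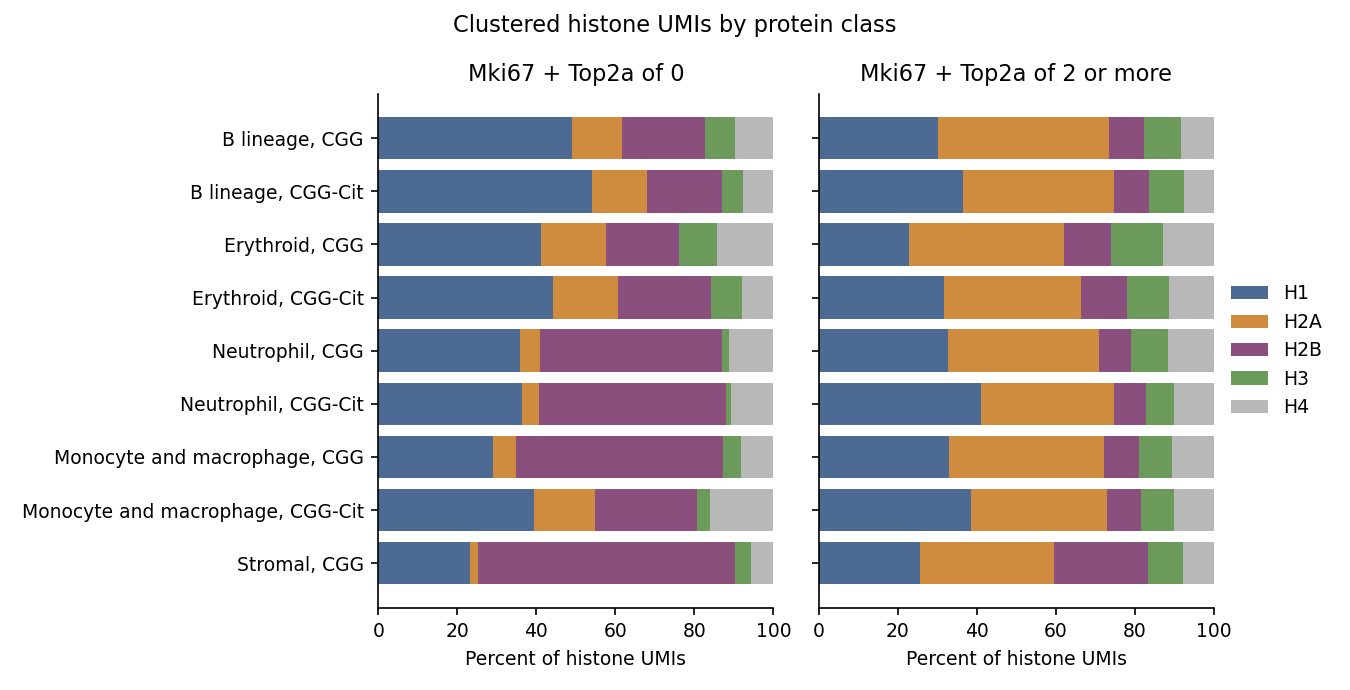
Share (percent) of histone UMIs that each protein class made up in non-cycling and cycling cells of named gated classes. H2A was 12.7% and 13.8% of the histone UMIs of non-cycling B lineage cells and 43.4% and 38.2% of those of cycling ones.

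Members also differed by annotated 3′ end. The 22 whose transcripts end within 100 bases of the stem-loop gave 11.3% and 10.8% of histone UMIs in non-cycling B lineage cells and 29.4% and 26% in cycling ones. The 19 whose transcripts run at least 100 bases on gave 66.9% and 69% of the non-cycling UMIs and 44.4% and 43.2% of the cycling ones. Much of that non-cycling share came from Hist1h1e and Hist1h1c, with 23% and 19.5% in CGG and 27.2% and 18.3% in CGG-Cit. Of the cycling UMIs, Hist1h1e gave 8.71% and 10.1%. Hist1h2ae, also in the group running at least 100 bases on, gave more of the cycling UMIs, 20.1% and 17.6%. Of the non-cycling UMIs, Hist1h2ae gave 4.62% and 5.9%. Shares without these genes were not computed. Among members with at least 10 non-cycling UMIs, the median ratio was 11.8 and 10.9 for the first group (7 and 11 members) and 4.94 and 5.26 for the second (12 and 16 members). Without that limit the medians were 26.3 and 14 against 5.56 and 5.73, where some members of the first group passed through their cycling side alone. Members with no annotated stem-loop and at least 10 non-cycling UMIs, 4 and 11 in number, had median ratios of 21.5 and 14.5, with Hist1h2bc the lowest at 1.33 and 1.41. That group mixes short models, which may stop before a stem-loop, with longer ones, so it is not a single kind of 3′ end. The median ratios are descriptions, and whether single UMIs came from tailed or tailless RNA was not tested. By chromosome, the chromosome 13 genes together were 10.4 and 8.88 times higher in cycling cells and the chromosome 3 genes 11.1 and 7.38 times. With the same limit, the median member ratios were 5.87 and 9.41 on chromosome 13 (20 and 30 members) and 11.8 and 5.39 on chromosome 3 (3 and 8 members), so the order of the chromosomes differed between libraries.

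Within the B lineage, cycling early B cells, defined by at least 2 UMIs of Igll1, Vpreb1 and Dntt, held 5962 CPM in CGG and 5351 CPM in CGG-Cit. Ms4a1-positive B cells were those with at least 2 UMIs of Ms4a1 and none of the early genes. Cycling B lineage cells in neither group held 12892 and 11119 CPM. The ratios to their own non-cycling cells were 7.58 and 6.85 for early B and 13.3 and 11.4 for the others. Median depth was 14798.5 and 14887 UMIs in the cycling early B cells and 6852 and 7224 in the others, and its part in this difference was not tested. Non-cycling Ms4a1-positive B cells had the lowest levels of the 3 groups, 473 and 635 CPM.

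Cycle position was approximated from a list of 33 S-phase genes (Mcm2, Pcna and others) and a list of 23 G2 and M-phase genes (Ccnb1, Cdc20 and others). Cells with at least 5 UMIs of both lists together were binned by the S-phase share. In the B lineage of CGG the histone sum was 763 CPM in cells with fewer than 5 such UMIs, then 6088, 9723, 7959 and 3861 CPM in bins of rising S-phase share. In CGG-Cit the same sequence was 897, 8298, 8171, 8278 and 3942 CPM. The level was lowest among the binned cells where S-phase genes made up 0.75 or more. The bins also differed in how many cells met the Mki67 and Top2a rule for cycling. In the B lineage 54.8% and 66.5% did in that bin, against 88.9% and 92.8% in the bin under 0.25. In the bin of 0.75 or more it was 57.4% and 36.4% of neutrophils and 11.7% and 24% of monocytes and macrophages. The part of non-cycling cells in the lower level was not tested, so the bin is not a reading of S phase alone. Neutrophils had 332, 1465, 3454, 2984 and 900 CPM in CGG and 385, 1342, 3072, 2680 and 1006 CPM in CGG-Cit, highest in the bin from 0.25 to 0.5. Monocytes and macrophages also peaked there, at 3062 and 5501 CPM. Other classes did not all peak there, among bins with at least 20 cells. Myeloid progenitors were highest from 0.5 to under 0.75, at 2899 and 2686 CPM. Erythroid cells of CGG were highest from 0.25 to under 0.5, at 8566 CPM. Those of CGG-Cit had 4923 CPM there and 5002 CPM from 0.5 to under 0.75. Hist1h2bc had another order. In the B lineage it was 92.8, 358, 165, 105 and 79 CPM in CGG and 87, 338, 101, 70.6 and 72.7 CPM in CGG-Cit, highest where G2 and M-phase genes dominated. Hist1h1b had 28.9, 511, 1488, 1261 and 658 CPM in CGG and 44.9, 1127, 1585, 1856 and 915 CPM in CGG-Cit, and was lower in both outer bins than in the middle bins of each library.

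**Figure D4:**
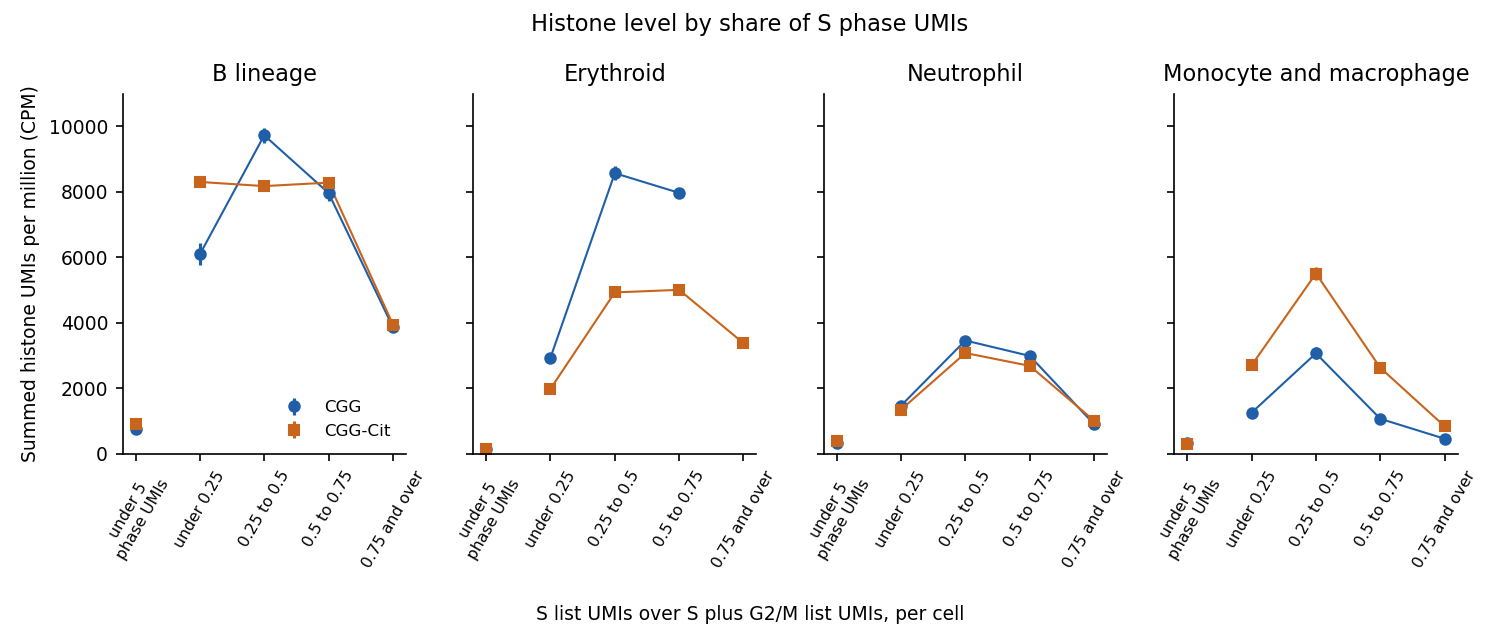
Summed histone CPM by bin of S-phase share, for gated classes in each library, from cells with fewer than 5 phase UMIs to cells with a share of 0.75 or more. B lineage cells of CGG went from 763 CPM through 9723 CPM to 3861 CPM.

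Other classes showed the same direction of the summed level. In T and NK cells of CGG, 37 cycling cells held 3090 CPM and 268 non-cycling cells 262 CPM, 11.8 times higher (10.4 to 13.4), and 6.88 times where 1 UMI of the pair counted as cycling. Cycling neutrophils held 2497 and 2403 CPM against 321 and 389 CPM, ratios of 7.78 (7.36 to 8.22) and 6.18 (5.98 to 6.39), and of 23.9 and 19 without Hist1h2bc and Hist1h1c. Here and in the classes below, both were left out after the values were seen. Their ratios were below that of the sum, so a rise was fixed by the choice. At least 2-fold higher in cycling neutrophils were 24 of 27 members in CGG and 35 of 39 in CGG-Cit, against 24.8% and 30.2% of all genes. With at least 10 non-cycling UMIs the counts were 7 of 10 and 14 of 18, against 22.5% and 28.3% of genes. Myeloid progenitors, marked by Elane, Mpo and other granule genes, differed less. They held 2200 against 774 CPM in CGG (2.84, 2.39 to 3.4) and 1852 against 474 CPM in CGG-Cit (3.91, 3.37 to 4.56), with 46 and 25 non-cycling cells, and the CGG ratio was 1.54 after thinning. Mast cells and basophils of CGG-Cit held 3786 CPM in 32 cycling and 1180 CPM in 21 non-cycling cells, a ratio of 3.21 (2.75 to 3.76).

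Erythroid cells had the widest gap per total UMIs, 97.9 against 6286 CPM in CGG (64.2 times, 55.3 to 74.9) and 129 against 4424 CPM in CGG-Cit (34.4 times, 31.6 to 37.5). Globin RNA moved with it, at 90.5% and 90.9% of the UMIs of non-cycling and 51% and 38% of those of cycling erythroid cells. With globin and mitochondrial UMIs left out of the total, the ratios were 12.3 and 5.09, and erythroid cells no longer led in CGG-Cit, where monocytes and macrophages stood at 14.7 and the B lineage at 8.72 on the same scale. With at least 500 detected genes per cell they were 31.7 and 16.2. With globin alone left out of the total, histone RNA was 1035 and 12816 CPM in CGG and 1409 and 7131 CPM in CGG-Cit.

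Stromal cells, marked by Pdgfra, Prrx1 and others, had a ratio as low as that of the progenitors. The 1063 non-cycling cells held 430 CPM and the 71 cycling cells 1217 CPM, a ratio of 2.83 (2.69 to 2.97), and 1.57 where 1 UMI of Mki67 or Top2a counted as cycling. Without Hist1h2bc and Hist1h1c, a choice made after the values were seen, it was 14.1. In CGG-Cit only 28 non-cycling and 2 cycling stromal cells were gated, and no ratio is given.

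Hist1h2bc, an H2B gene, and Hist1h1c, an H1 gene, differed least between the 2 states over all gated cells among the named members other than Hist2h3c2. Their cycling to non-cycling ratios there were 0.602 and 0.807 for Hist1h2bc and 1.42 and 1.33 for Hist1h1c. In non-cycling stromal cells of CGG, Hist1h2bc was at 274 CPM, 63.8% of all histone UMIs, and in cycling ones at 224 CPM (ratio 0.817, 0.733 to 0.909). In the 28 non-cycling stromal cells of CGG-Cit it was at 413 CPM. Hist1h1c in CGG stromal cells was at 92 and 94 CPM. At least 10 histone UMIs were found in 268 of 1063 non-cycling stromal cells (25.2%), and Hist1h2bc made up 65.4% of the histone UMIs of those cells. In non-cycling B lineage cells the shares of cells with that many were 1.69% and 2.35%, at median depths of 2543 and 2718 UMIs against 15090 in the stromal cells.

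In neutrophils Hist1h2bc went the other way from the sum. It was at 131 CPM in non-cycling and 47.8 CPM in cycling cells of CGG (ratio 0.366, 0.304 to 0.437) and at 167 and 44 CPM in CGG-Cit (0.263, 0.232 to 0.296). Hist1h1c had 93.1 and 132 CPM in CGG (1.41, 1.23 to 1.62), with a ratio of 0.793 (0.536 to 1.15) after thinning, and 104 and 132 CPM in CGG-Cit (1.27). Hist1h4i was also only 1.71 and 1.37 times higher. By contrast Hist1h1b was at 3.34 and 8.04 CPM at rest and 87 and 48.5 times higher in cycling neutrophils. The maturity of the cells moved with the split. Cells with at least 2 UMIs of Cxcr2 and Il1r2 together and none of Fcnb were called Cxcr2-positive, the mature form. Fcnb-positive cells, the immature form, had at least 2 UMIs of Fcnb. Of the non-cycling neutrophils, 695 of 927 and 1515 of 1961 were Cxcr2-positive by this rule, with 158 and 206 CPM of Hist1h2bc. Fcnb-positive cells had 40.9 and 39.6 CPM of Hist1h2bc at rest and 46.9 and 41.6 CPM in cycle.

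Mature neutrophils are known not to divide, so they serve here as the reference for cells that should lack Hist1h1b. Free RNA and a cell's own remaining RNA cannot be told apart in them. Hist1h1b was found in 1.58% and 4.36% of non-cycling ones at median depths of 4310 and 4677 UMIs, and in 69% and 76.1% of cycling Fcnb-positive cells at median depths of 18914.5 and 19622.5 UMIs. Among Fcnb-positive cells alone, the histone sum was 18.8 and 12.9 times higher in cycling cells.

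Erythroid cells and T and NK cells differed from neutrophils in Hist1h2bc. It was 12.3 CPM in non-cycling and 204 CPM in cycling erythroid cells of CGG (16.5, 10.8 to 26.6) and 21.3 and 137 CPM in CGG-Cit (6.44, 5.21 to 8.06), with the globin shares given above. In T and NK cells of CGG it was 29.6 and 80.4 CPM (2.72, 1.63 to 4.54). In the 2 non-cycling cells per library that passed the platelet gate, 23 of 25 and 62 of 65 histone UMIs were Hist1h2bc, out of 1573 and 2760 UMIs in all.

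**Figure D5:**
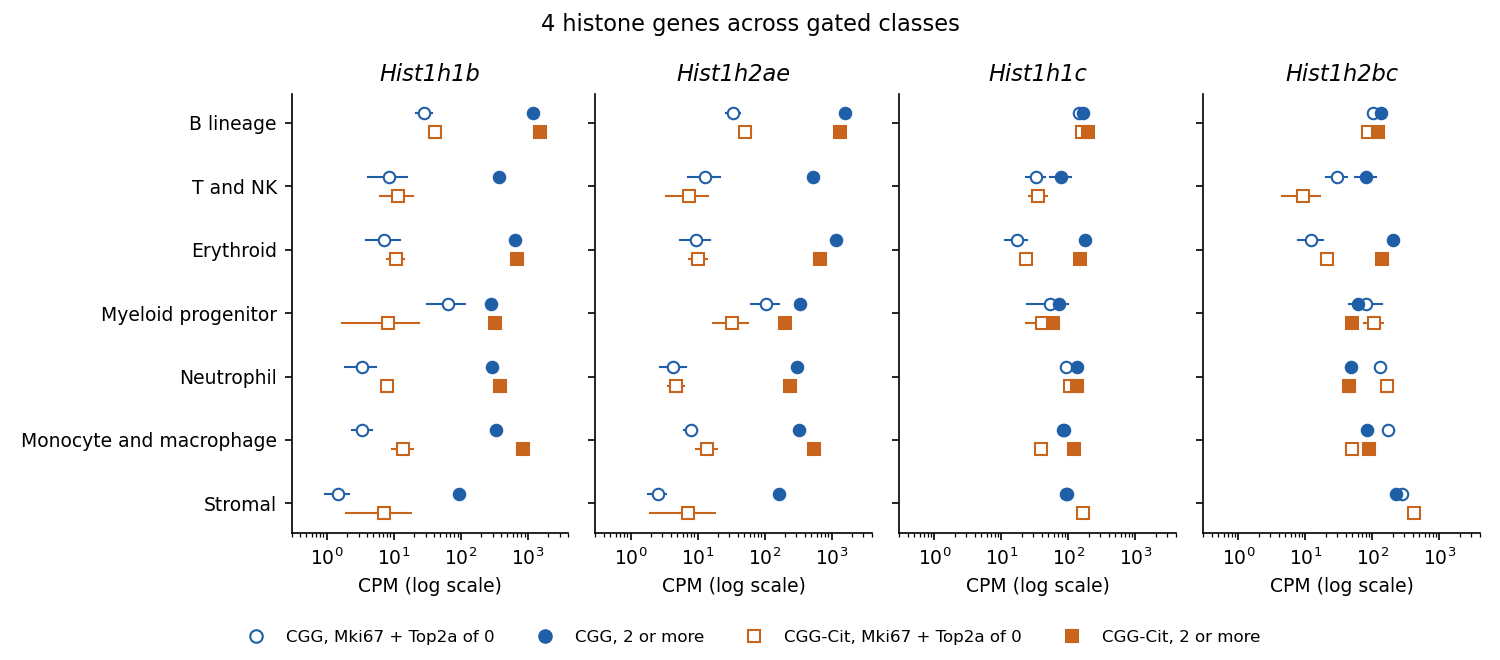
CPM of Hist1h1b, Hist1h2ae, Hist1h2bc and Hist1h1c in non-cycling and cycling cells of gated classes and libraries (log axis), with exact 95% counting intervals. Hist1h1b and Hist1h2ae are higher in cycling cells of each class drawn, while Hist1h2bc is lower in cycling neutrophils, at 47.8 and 44 CPM against 131 and 167 CPM.

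In monocytes and macrophages, 19 of 24 members in CGG and 28 of 29 in CGG-Cit were at least 2-fold higher in cycling cells, against 8.52% and 10.1% of all genes. With at least 10 non-cycling UMIs the counts were 15 of 20 and 11 of 12, against 8.29% and 7.94% of genes. The sums were 1945 against 349 CPM in CGG (5.57, 5.32 to 5.84, 3.09 where 1 UMI of the pair counted as cycling, and 18.8 without Hist1h2bc and Hist1h1c) and 4132 against 279 CPM in CGG-Cit (14.8, 13.7 to 16.1). The members below 2-fold in CGG were Hist1h2bc at 0.489, Hist1h1c at 1.03, Hist2h2be at 0.896, Hist2h3c1 at 0.591 and Hist2h3c2 at 0.197, and in CGG-Cit Hist1h2bc at 1.81 (3.77 after thinning). The 2 libraries held different cells under this gate. Of the cycling cells, 99 of 143 in CGG had at least 2 UMIs of the complement genes C1qa, C1qb and C1qc, which mark tissue macrophages, and 112 of 117 in CGG-Cit had none. C1q-positive cells of CGG held 1414 CPM in cycle and 373 CPM at rest (3.79, 3.56 to 4.02), and C1q-negative cells of CGG-Cit 4252 and 290 CPM (14.7, 13.5 to 16).

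Around these genes, the lists of related genes were compared in the same B lineage cells. A list named replication-independent histones was 1.52 and 1.47 times higher in sum, and 6 of 12 and 5 of 13 compared were at least 2-fold higher. Over all genes 12.3% and 11.9% were, which holds beside this list and those below. Most members of the list are known to be made throughout the cycle from polyadenylated RNA, but not all, so the name is not exact for each. H3f3a (0.867 and 0.875) and H3f3b (0.842 and 0.813), which encode H3.3, were slightly lower in cycling cells, while H2afz was 6.77 and 6.31 and H2afx 19.2 and 20 times higher. Hist3h2a was lower, at ratios of 0.55 and 0.352. Genes for histone mRNA processing and histone supply were 2.91 and 2.62 times higher in sum, with 16 of 22 and 15 of 23 at least 2-fold higher. Slbp, which binds the stem-loop, was 4.14 and 4.33 times higher, the chaperone gene Nasp 5.37 and 5.94 times, and the chaperone gene Asf1b 27.6 and 33.2 times. Npat, the coactivator of histone transcription, was 2.16 and 1.54 times higher, and Lsm10, of the U7 particle that cuts histone pre-mRNA, had ratios of 1.23 and 0.862. All 33 S-phase genes and all 23 G2 and M-phase genes were at least 2-fold higher in both libraries, with sums 11 and 8.95 times and 51.4 and 32.8 times higher. The cells were split by Mki67 and Top2a, themselves genes of dividing cells, so these lists are not an independent check of the split.

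Between hydrogels, the histone sum over all kept cells was 1212 CPM in CGG and 2579 CPM in CGG-Cit, 2.13 times higher (2.11 to 2.14). Within a state the libraries were much closer. Cycling cells held 3362 and 4013 CPM and non-cycling cells 402 and 449 CPM, ratios of 1.19 and 1.12. The share of cycling cells moved with the total, at 17.8% in CGG and 31.3% in CGG-Cit, as did the share of B lineage cells, 8.45% and 39%. The ungated share, 39.6% and 10%, moved too, and its part in the class shares was not tested. B lineage cells held 17.1% and 47% of the histone UMIs, and stromal cells 10.5% and 0.268%. With 1 library each, hydrogel, library and make-up of cells cannot be told apart.

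In cycling B lineage cells the CGG-Cit sum was 0.987 times that of CGG (0.97 to 1), and in non-cycling ones 1.17 times (1.11 to 1.24). Of 57 members compared in cycling B lineage cells, Hist2h3c1 (3.94, from 3 UMIs in CGG, 1.3 to 19.5) and Hist2h2ab (2.65, from 2 UMIs, 0.684 to 22.6) were at least 2-fold higher in CGG-Cit, against 2.32% of all genes. Hist1h4m (0.348, from 10 UMIs) was at most 0.5 times as high, against 3.05% of all genes. The median member ratio was 0.95, and that of all genes 0.977. Among the members with more UMIs, Hist1h1b was 1.27 times higher in CGG-Cit (1.21 to 1.32) and Hist1h2ae 0.867 times (0.834 to 0.9). In non-cycling B lineage cells 1 of 27 members, Hist1h1a at 2.6 (1.39 to 5.37), was at least 2-fold higher, against 2.14% of genes, and 0 of 27 were at most 0.5 times as high, against 5.97%. These shares are near those of all genes.

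Elsewhere the libraries were further apart. In cycling erythroid cells 0 of 53 members were at least 2-fold higher in CGG-Cit, where 21.6% of all genes were, and 10 of 53 were at most 0.5 times as high, where 2.13% of all genes were. Of those 10, 7 were H4 genes, namely Hist1h4a, Hist1h4b, Hist1h4c, Hist1h4j, Hist1h4m, Hist1h4n and Hist2h4. Of all 66 members 12 are H4 genes, and their number among the 53 is not given here. As a protein class H4 did not stand apart. Its level was 815 CPM in CGG and 500 CPM in CGG-Cit. H3 had 824 and 467 CPM, H2A 2472 and 1541, H2B 743 and 519, and H1 1432 and 1396. The sum of all members in cycling erythroid cells was 0.704 times that of CGG (0.692 to 0.716), and 0.556 times without globin and mitochondrial UMIs. In cycling monocytes and macrophages 18 of 32 members were at least 2-fold higher in CGG-Cit, against 3.26% of genes, and the sum was 2.12 times higher (2.04 to 2.21), with the C1q difference given above. In cycling neutrophils 1 of 41 members, Hist1h1a at 2.08, was at least 2-fold higher, against 1.63% of genes. The sum there was 0.962 times that of CGG (0.937 to 0.988), and 1.08 times with predicted doublets kept and 1.03 times after thinning.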

How the data were processed

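Each deposited matrix holds whole-number UMI counts per gene and cell barcode, made by the authors with Cell Ranger 4.0.0 per the file headers, while the submitters' processing notes name Cell Ranger 3.0 and mm10. The sources used here do not state whether intronic reads were counted. Barcodes with fewer than 200 genes or over 20% mitochondrial UMIs were left out, and doublets predicted by Scrublet (scanpy 1.11.5) were taken out. Its own threshold marked 537 barcodes in CGG-Cit. In CGG it marked 1, so the highest-scoring 10%, 1231 barcodes, were taken out.

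A cell was gated to the panel with the most UMIs, given at least 3 UMIs from at least 2 genes and 3 times the next panel. For T and NK cells 3 panel genes were not in the feature list. UMIs were summed per class, state and library, with no count model or test, because each group is 1 library and cells are not replicates. CPM have exact Poisson intervals and ratios exact conditional binomial intervals, tested on simulated data. Ratios needed at least 20 cells on each side and, for a gene, 30 UMIs over both.

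Named members are the 15 with the most UMIs, any with at least 100 UMIs and a ratio under 1.5 over all gated cells in both libraries, and the leading member of each protein class. Members outside that rule were named after their values were seen. Members and lists were chosen with earlier results of these data known. Python 3.11.15, numpy 2.4.6, scipy 1.17.1, pandas 2.3.3 and matplotlib 3.10.9 were used.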

Additional observations from a re-analysis of the deposited data

Results flagged for a closer look

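Hist1h2bc in monocytes and macrophages lay on opposite sides of equality in the 2 libraries. It was 0.489 times as high in cycling as in non-cycling cells of CGG (0.409 to 0.579) and 1.81 times in CGG-Cit (1.42 to 2.32). After thinning to 2000 UMIs per cell the ratios were 0.559 and 3.77. The difference between the libraries was not tested, since there is 1 library per hydrogel. The C1q-positive share of the gated cells differed between them, and its part in the difference was not tested.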

How the results depend on the processing

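The 4 summed B lineage ratios kept their direction, except that the cycling CGG-Cit to CGG ratio of 0.987 crossed 1. It was 1.02 with doublets kept, 1.05 with 1 UMI of the pair counted as cycling, 1.05 after thinning, and 0.936 without Hist1h1b. The cycling to non-cycling ratio of 10.5 in CGG became 9.33 with a cycling minimum of 1, 11.5 after thinning, 9.26 without Hist1h1b and 15.1 without Hist1h2bc and Hist1h1c, an alternative chosen after seeing the data. That of 8.86 in CGG-Cit became 8.33, 9.9, 7.47 and 11.9 in the same order. The non-cycling CGG-Cit to CGG ratio of 1.17 was 1.26 without Hist1h2bc and Hist1h1c. Elsewhere 4 ratios whose interval excluded 1 turned direction under 5 alternatives: cycling myeloid progenitors between libraries (0.842, 1.01 after thinning), cycling neutrophils (0.962, 1.08 with doublets kept and 1.03 after thinning), non-cycling monocytes and macrophages (0.798, 2.01 without Hist1h2bc and Hist1h1c) and Hist1h1c in CGG neutrophils (1.41, 0.793 after thinning). Hist1h1c ratios near 1 also crossed it, in CGG monocytes and macrophages (1.03, lowest 0.986) and CGG stromal cells (1.02, lowest 0.796). The cause was not tested. Of the other alternatives for classes and members, 457 stayed within the main interval and 91 left it. No library could be left out, as each group has 1. No paired analysis was possible because each hydrogel has a single library. Counting intervals leave out the variation between animals, and members with few non-cycling UMIs have wide ratios.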
